A study of Mus musculus with 6 samples.

Results

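The genes described here are 10 regulators of mRNA translation and storage in germ cells: Dazl, Boll, Ddx25, Ybx2, Ybx1, Cpeb1, Cpeb2, Rbm46, Elavl2 and Pabpc1. They were chosen by name from the deposited table of 54532 genes, and all 10 were found there, each on 1 row and each annotated as protein-coding. All 10 also had a mean of at least 1 FPKM (fragments counted for a gene divided by its length and by the library's scale) over the 6 libraries, which was the limit for testing. The sequenced RNA came from mouse testis cells labelled STRA8+. STRA8 is a factor that germ cells make as they enter meiosis under retinoic acid. The groups were conditional knockouts (cKO, 3 libraries, genotype given as knockout) and controls whose genotype is given as Cre (Control, 3 libraries). The labels used here name neither the deleted gene, the promoter of the Cre, the strain nor the age. Nor do they say if the libraries came from separate animals, so that a p-value reflects variation among libraries that could be technical. BCAS2 and hnRNPH1 are the proteins in the title of the study.

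Male germ cells make many mRNAs long before the proteins are needed. Transcription stops as the spermatid nucleus condenses, so mRNAs for late proteins are packed with RNA-binding proteins, kept silent and released in steps. Proteins of the DAZ and CPEB families bind sites in 3' untranslated regions and set the length and use of the poly(A) tail, the Y-box proteins coat stored mRNAs, and the poly(A)-binding proteins link the tail to translation initiation. What was measured here is the level of the mRNAs that encode these regulators, not translation.

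The library facts that bear on these genes were as follows. The reads behind the values, recovered from the FPKM, totalled 14770320 to 15204127 per cKO library and 14532453 to 16963019 per Control library. Bcas2, the gene of a splicing factor, is given because the title names its protein. It had 4.78, 4.38 and 5.40 FPKM in the cKO libraries and 19.8, 19.3 and 20.5 FPKM in the Control libraries, and was lower in every cKO library. On the log2 scale it fell by 1.93, or by 0.84 once FPKM were rescaled to 1000000, and 5314 of the genes tested had a lower fold change as deposited, so a fall of this size was common. The libraries of the 2 groups differed for most genes: 86.6% of the 16791 genes tested were called at an adjusted p of 0.05 by limma, 36.2% of them higher and 50.4% lower in cKO, with a median log2 fold change of -0.41. The authors' scaling divided cKO libraries by 1.37 to 1.42 times their read total and Control libraries by 0.691 to 0.774 times theirs. Under other scalings the median over all genes shifted up, on the log2 scale, by 0.83 (reads to 1000000), 0.94 (quantile normalization) or 1.12 (FPKM to 1000000).

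Markers of germ cell stages differed between the groups, beside 36.2% of all genes tested called higher in cKO and 50.4% lower. All 10 markers of pachytene and diplotene spermatocytes were lower in cKO, with a summed level of 49.0 to 66.4 FPKM in cKO libraries and 2399 to 2885 FPKM in Control libraries. All 10 spermatid markers were lower as well, with sums of 7.39 to 8.34 FPKM in cKO and 6799 to 8467 FPKM in Control. Prm1 and Tnp1 of this list, and Pgk2 and Tdrd6 of the list before, had a mean below 1 FPKM in cKO. They met the limit for testing only through Control, so the fall of such genes was fixed in advance. Of the 7 markers of differentiating spermatogonia 6 were higher in cKO and 1 was lower, and of the 8 markers of early meiotic prophase 6 were higher and none lower by limma, the other two being past no threshold. Of the 5 markers of undifferentiated spermatogonia tested 3 were higher in cKO and 2 lower. Gfra1, a receptor of GDNF, and Id4, a transcription regulator, were the lower ones, with log2 fold changes of -1.02 and -1.73, and were named after their values were seen. Gfra1 was not called under FPKM rescaling, at -0.23, or under quantile normalization, at 0.30. Uchl1, a deubiquitinase of spermatogonia, had 235 ± 36.4 FPKM in cKO and 39.0 ± 8.10 FPKM in Control, and Prdm9, which marks sites of meiotic breaks, had 23.0 ± 3.09 FPKM in cKO and 3.07 ± 0.708 FPKM in Control (SD, n = 3 each). Pgk2, the glycolytic kinase of late spermatocytes, had 0.130 ± 0.128 FPKM in cKO and 776.7 ± 112.1 FPKM in Control. In bulk RNA, fewer cells of a type and less RNA per cell cannot be told apart.

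Markers of cells other than germ cells also differed, beside the same shares of all genes tested (36.2% higher and 50.4% lower). All 9 Sertoli markers were higher in cKO and none was at 0 in either group, with summed levels of 489 to 873 FPKM in cKO and 106 to 242 FPKM in Control. Sox9, the transcription factor of Sertoli cells, and Inha, a subunit of inhibin, were among them, with log2 fold changes of 2.25 and 2.09. Macrophage markers were higher in 4 of 7 genes tested, with sums of 59.3 to 177.9 FPKM in cKO and 34.8 to 55.5 FPKM in Control. Of 5 Leydig markers tested 3 were lower and 1 higher, with sums of 14.98 to 66.7 FPKM in cKO and 86.2 to 141.9 FPKM in Control. Only 1 of the 3 lower calls held under the deposited scaling and 4 others, as did the 1 higher call. The other scalings shifted the median over all genes up and could hardly undo a higher call. The 4 peritubular markers tested were not called, and no endothelial marker reached the limit for testing. Erythroid markers summed to 4.44 to 12.96 FPKM in cKO and 9.54 to 21.4 FPKM in Control. Because an extraction protocol in the labels mentions retina, photoreceptor markers were looked at too. They summed to 3.73 to 4.01 FPKM in cKO and 7.20 to 7.70 FPKM in Control, with Crx and Gngt1 at 0 in all 6 libraries. With spermatid markers high in Control and Sertoli markers present in both groups, the levels below may not be those of STRA8+ cells alone. The part of these cells in the results below was not tested.

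The 10 regulators divided into 4 that rose in cKO and 6 that fell. Dazl, Cpeb1 and Elavl2 rose by 4.05, 5.69 and 5.29 times in mean FPKM and Rbm46 by 1.22 times. Ybx2, Ddx25 and Cpeb2 were 19.4, 16.6 and 11.0 times lower in cKO, and Boll, Pabpc1 and Ybx1 5.41, 5.19 and 4.96 times lower. All 10 were past the adjusted p of 0.05, against 86.6% of all genes tested, a share that gives no ground for reading the count as a result about these genes. The same 4 were called higher and the same 6 lower with FPKM rescaled to 1000000, where 54.2% of all genes were called higher and 36.2% lower, with quantile normalization, where the shares were 52.1% and 36.8%, and with reads rescaled to 1000000, where they were 50.6% and 38.9%. These scalings shifted the median over all genes up, so they could hardly undo a rise. The 3 libraries of cKO and the 3 of Control did not overlap for any of the 10, which held for 88.0% of all genes tested. A called log2 fold change of at least 2, as Dazl, Cpeb1 and Elavl2 had, was seen for 4.63% of all genes tested, and one of -2 or less, as the 6 lower genes had, for 30.9%. Only 210 of the genes tested had a higher log2 fold change than Cpeb1, 562 had a higher one than Elavl2 and 732 a higher one than Dazl, whereas 1865 had a lower one than Ybx2.

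**Figure D1:**
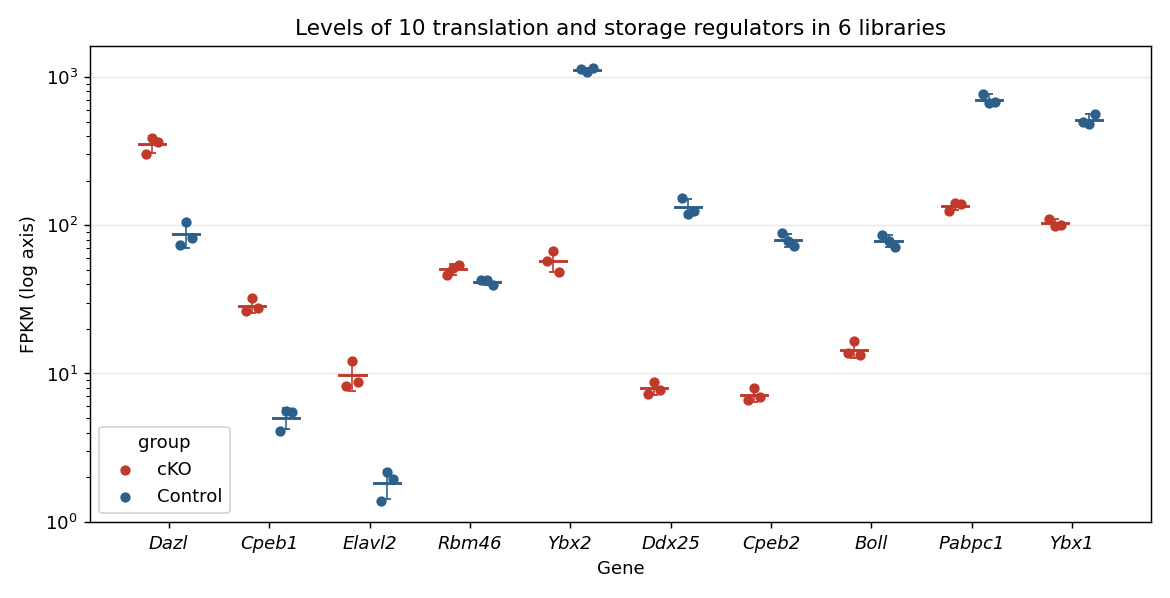
Levels of the 10 genes in FPKM on a log axis, with 1 point per library, a bar at the group mean and whiskers of 1 SD, cKO left of Control for each gene. The groups do not overlap for any gene. Dazl, Cpeb1, Elavl2 and Rbm46 are higher in cKO and the other 6 are lower.

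The same group of genes was made up differently in the 2 groups of libraries. Summed over the 10 genes, the level was 704, 825 and 771 FPKM in cKO and 2845, 2645 and 2781 FPKM in Control, or 0.399 to 0.456% of all reads in cKO and 0.752 to 0.761% in Control. Dazl made up 45.7 ± 2.54% of the sum in cKO and 3.17 ± 0.736% in Control. Ybx2 made up 7.52 ± 1.11% in cKO and 40.5 ± 0.780% in Control. Pabpc1 took 17.7 ± 0.504% in cKO and 25.4 ± 1.47% in Control, and Ybx1 13.6 ± 1.92% in cKO and 18.6 ± 1.499% in Control (SD, n = 3 each). These shares are taken within a library, so multiplying a library's values by 1 factor leaves them as they are, but quantile normalization does not.

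**Figure D2:**
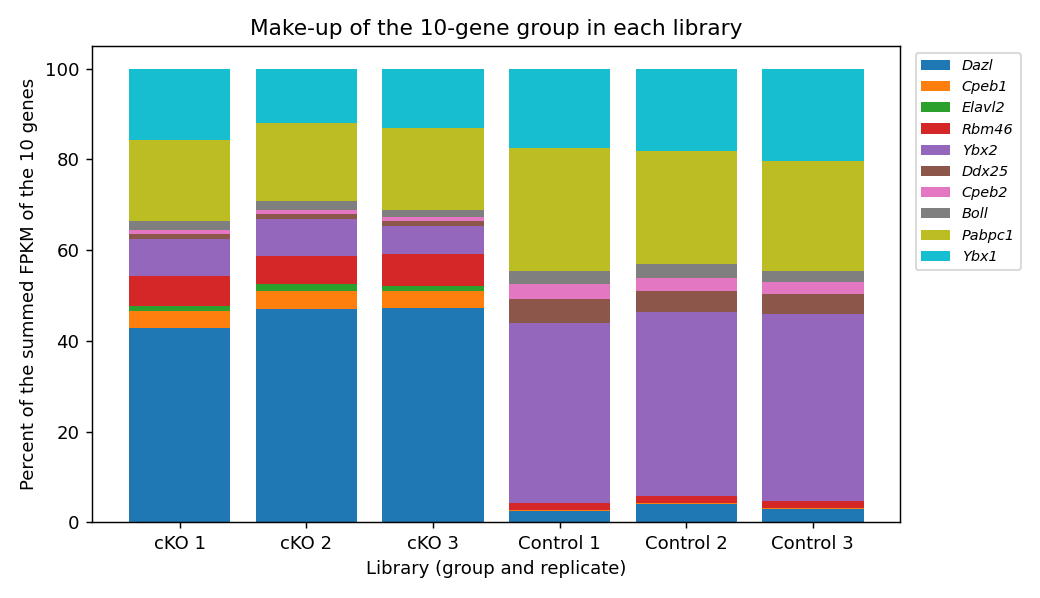
Stacked bars give each gene's percent of the summed FPKM of the 10 genes in each library, the 3 cKO libraries on the left. Dazl fills 42.8 to 47.3% of the cKO bars and 2.57 to 3.99% of the Control bars, and Ybx2 fills 6.24 to 8.21% of the cKO bars and 39.7 to 41.2% of the Control bars.

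In order of level, the cKO libraries had Dazl first, followed by Pabpc1, Ybx1, Ybx2, Rbm46, Cpeb1, Boll, Elavl2, Ddx25 and Cpeb2. The ranges of Ybx2 and Rbm46 overlapped, as did those of Elavl2 and Ddx25 and of Ddx25 and Cpeb2. In the Control libraries the order was Ybx2, Pabpc1, Ybx1, Ddx25, Dazl, Cpeb2, Boll, Rbm46, Cpeb1 and Elavl2. There the ranges of Dazl and Cpeb2 and of Cpeb2 and Boll overlapped. Among all 54532 genes, Dazl ranked 17 in mean FPKM in cKO and 1058 in Control, and Ybx2 ranked 415 in cKO and 26 in Control.

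The windows around the start sites of 3 of these genes are shown because they stand for the different courses. Dazl had the largest share of the group's sum in cKO. Under the deposited scaling, Ybx2 had the largest fall and Rbm46 the smallest log2 fold change in size. Each window runs from 250 bases before to 50 bases after a start site, from RefSeq on GRCm38.p6, and is written 5′ to 3′ on the gene's strand. Dazl is at chr17:50293571-50293870 (minus strand), Ybx2 at chr11:69935649-69935948 (plus strand) and Rbm46 at chr3:82876434-82876733 (minus strand). Capitals mark matches on either strand to CTGATTGG, the Y-box after which the Y-box proteins are named, and to CNCCTCAG, the letters reported for binding of mouse STRA8. No letters in these windows matched 2 motifs at once.
Dazl: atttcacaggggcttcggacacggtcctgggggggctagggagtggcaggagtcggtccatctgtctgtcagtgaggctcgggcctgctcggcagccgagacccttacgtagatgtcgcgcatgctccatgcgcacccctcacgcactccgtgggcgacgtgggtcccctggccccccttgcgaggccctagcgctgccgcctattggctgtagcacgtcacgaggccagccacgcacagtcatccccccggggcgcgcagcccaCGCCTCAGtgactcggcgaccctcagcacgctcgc
Ybx2: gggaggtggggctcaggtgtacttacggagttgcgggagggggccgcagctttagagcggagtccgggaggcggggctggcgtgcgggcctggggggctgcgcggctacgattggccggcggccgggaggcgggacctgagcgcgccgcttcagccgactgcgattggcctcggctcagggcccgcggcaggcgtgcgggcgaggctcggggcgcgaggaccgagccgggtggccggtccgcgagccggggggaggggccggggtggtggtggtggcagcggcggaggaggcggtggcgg
Rbm46: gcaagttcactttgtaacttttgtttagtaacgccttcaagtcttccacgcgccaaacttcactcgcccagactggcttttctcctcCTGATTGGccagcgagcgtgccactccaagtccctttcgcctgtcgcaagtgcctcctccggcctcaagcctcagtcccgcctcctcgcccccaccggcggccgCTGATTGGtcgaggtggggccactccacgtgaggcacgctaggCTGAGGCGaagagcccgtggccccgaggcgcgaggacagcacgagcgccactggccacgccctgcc

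Of the 10 genes, 8 had windows in that table, and Cpeb2 and Pabpc1 had none to use here. The STRA8 letters were found in the Dazl window at positions 16 to 23 after the start site and in the Rbm46 window on the other strand at -16 to -9. A further Ybx2 window, not printed, also held them, so 3 of the 8 genes had a match, against 9.12% of the 27025 genes in the table. Some genes have several windows, which gives them more chances of a match. Counted by window, 20.0% of the 15 windows of the 8 genes held the letters, against 7.94% of all 32851 windows. The Y-box was found at 2 places in the Rbm46 window, at -163 to -156 and at -59 to -52, and in windows of Boll and Elavl2 that are not printed. That makes 3 of 8 genes, against 4.7% of all genes, or 26.7% of their windows, against 4.1% of all windows. No window of the 8 genes held the cyclic AMP response element TGACGTCA, which 2.03% of all genes had, and 1, of Boll, held the E2F letters TTCCCGC, which 5.29% of all genes had. The printed windows had 68.7% (Dazl), 78% (Ybx2) and 64% (Rbm46) of G or C, against a median of 52.7% over all windows. The shares above were not matched for this, so they do not show an excess. These matches are a description of the letters and were not set against expression.

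The 2 genes of the DAZ family measured here moved in opposite directions. Dazl (chromosome 17, 50279395 to 50293636 in mm10), which binds 3' untranslated regions and brings in poly(A)-binding protein to promote translation in germ cells, had 301, 388 and 365 FPKM in the cKO libraries and 73.3, 105.6 and 81.6 FPKM in the Control libraries. Every cKO library lay well above every Control library. The mean was 352 ± 45.0 FPKM in cKO and 86.8 ± 16.8 FPKM in Control (SD, n = 3 each), and the log2 fold change was 2.02 ± 0.157 (SE), with a limma adjusted p of 6.5e-06. Over 5 scalings it lay between 2.02 and 3.73.

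Boll (chromosome 1, 55248658 to 55363469), the mouse form of the ancestral family gene boule and needed for the maturation of spermatids, had 13.7, 16.5 and 13.2 FPKM in cKO and 85.8, 78.1 and 71.5 FPKM in Control. All cKO libraries were low. Its mean was 14.5 ± 1.78 FPKM in cKO and 78.5 ± 7.13 FPKM in Control, with a log2 fold change of -2.40 ± 0.116 (SE) and a limma adjusted p of 3.6e-07, or -2.40 to -1.24 over the scalings. A processed pseudogene, Gm8292, lies within the Boll gene on the opposite strand. It had 700 reads in cKO and 489 in Control, and the counting strand is not given in the sources used here. Within a library, the ratio of Boll to Dazl was 0.0456, 0.0426 and 0.0363 in cKO and 1.17, 0.740 and 0.876 in Control. The groups did not overlap, and the ratio was 22.1 times lower in cKO by the mean of its log2 values. The difference in log2 ratio was -4.46 with an exact two-sided permutation p of 0.1, the smallest that 3 against 3 libraries can give, and an adjusted p of 0.1 over the 5 pairs compared.

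The CPEB family showed a similar division. Cpeb1 (chromosome 7, 81347026 to 81455465), which binds the cytoplasmic polyadenylation element and lengthens or shortens poly(A) tails, and without which mouse germ cells stop in meiotic prophase, had 26.6, 32.1 and 27.5 FPKM in cKO and 4.06, 5.61 and 5.46 FPKM in Control. All cKO libraries were at least several times higher than any Control library. Its mean was 28.7 ± 2.99 FPKM in cKO and 5.04 ± 0.853 FPKM in Control, and the log2 fold change was 2.40 ± 0.142 (SE) with a limma adjusted p of 1.2e-06, or 2.40 to 3.64 over the scalings. The Control values rest on 171, 309 and 282 reads.

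Cpeb2 (chromosome 5, 43233170 to 43289724), a paralog of a separate branch of the family that also binds 3' untranslated regions, had 6.59, 7.999 and 6.96 FPKM in cKO and 88.2, 77.8 and 71.9 FPKM in Control. Its mean was 7.18 ± 0.730 FPKM in cKO and 79.3 ± 8.27 FPKM in Control, with a log2 fold change of -3.38 ± 0.113 (SE) and a limma adjusted p of 4.3e-08, or -3.38 to -2.26 over the scalings. The ratio of Cpeb2 to Cpeb1 was 0.248, 0.249 and 0.253 in cKO and 21.7, 13.9 and 13.2 in Control, so Cpeb1 was the more abundant of the pair in every cKO library and Cpeb2 in every Control library. The difference in log2 ratio was -5.98 (exact two-sided permutation p = 0.1, adjusted p = 0.1 over the 5 pairs). Of the other two family members, Cpeb3 fell, at 1.57 ± 0.130 FPKM in cKO and 13.9 ± 0.881 FPKM in Control, and Cpeb4 was not called, at 16.4 ± 0.675 FPKM in cKO and 18.8 ± 1.33 FPKM in Control, with a log2 fold change of -0.19 as deposited. Cpeb4 was called higher under 3 other scalings, at 0.67 (quantile normalization), 0.71 (reads to 1000000) and 0.99 (FPKM to 1000000). Both were named after their values were seen.

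**Figure D3:**
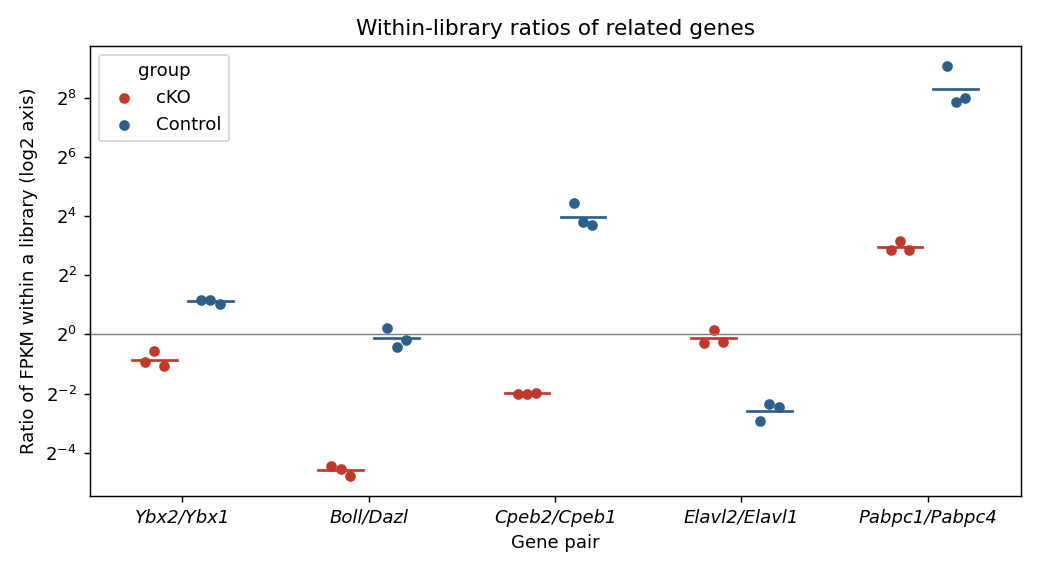
Ratios of FPKM between related genes within each library on a log2 axis, 1 point per library and a bar at the mean of the log2 ratios, cKO left of Control. Groups do not overlap for any of the 5 pairs. Cpeb2/Cpeb1 is near 0.25 in cKO and 13.2 to 21.7 in Control.

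Among the storage proteins, Ybx2 (chromosome 11, 69935796 to 69941605), the germ cell Y-box protein also known as MSY2 that coats and stabilises stored mRNAs, fell furthest of the 10 genes as deposited. It had 57.8, 66.9 and 48.1 FPKM in cKO and 1129, 1073 and 1147 FPKM in Control. The Control libraries varied by a CV of 3.47%, the lowest among the 10 genes in that group. Its mean was 57.6 ± 9.40 FPKM in cKO and 1116 ± 38.8 FPKM in Control, with a log2 fold change of -4.28 ± 0.127 (SE) and a limma adjusted p of 2.1e-08, or -4.28 to -2.54 over the scalings. Under quantile normalization Ddx25 fell further, at -2.86 against -2.54 for Ybx2.

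Ybx1 (chromosome 4, 119277981 to 119294604), the Y-box protein made in most tissues, had 111, 99.4 and 100.3 FPKM in cKO and 498, 478 and 566 FPKM in Control. Its mean was 104 ± 6.41 FPKM in cKO and 514 ± 45.9 FPKM in Control, with a log2 fold change of -2.30 ± 0.0998 (SE) and a limma adjusted p of 1.9e-07. Under quantile normalization the log2 fold change was -0.59, still past the threshold. A pseudogene copy, Ybx1-ps2, had 16 reads in cKO and 41 in Control, and how reads shared with such copies were counted is not given in the sources used here. The Ybx2 to Ybx1 ratio was 0.521, 0.673 and 0.479 in cKO and 2.27, 2.24 and 2.03 in Control, so Ybx1 was the more abundant of the pair in every cKO library and Ybx2 in every Control library. The difference in log2 ratio was -1.98 (exact two-sided permutation p = 0.1, adjusted p = 0.1 over the 5 pairs). The third Y-box gene, Ybx3, which encodes MSY4, fell to 13.9 ± 1.17 FPKM in cKO, against 860.2 ± 63.7 FPKM in Control.

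Ddx25 (chromosome 9, 35536647 to 35558528), a testis RNA helicase also called GRTH that carries mRNAs to the chromatoid body and is needed for spermatids to elongate, had 7.24, 8.77 and 7.78 FPKM in cKO and 153, 119.6 and 124 FPKM in Control. All cKO libraries were low. Its mean was 7.93 ± 0.777 FPKM in cKO and 132 ± 17.96 FPKM in Control, with a log2 fold change of -3.97 ± 0.122 (SE) and a limma adjusted p of 2.6e-08, or -3.97 to -2.85 over the scalings.

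Elavl2 and Rbm46 bind mRNAs in earlier germ cells. Elavl2 (chromosome 4, 91250763 to 91400785), the Hu protein HuB of germ cells and neurons, had 8.18, 12.2 and 8.79 FPKM in cKO and 1.39, 2.17 and 1.95 FPKM in Control. It was the least abundant of the 10 genes in Control, where its values rest on 116, 237 and 200 reads. The mean was 9.72 ± 2.15 FPKM in cKO and 1.84 ± 0.403 FPKM in Control, with a log2 fold change of 2.12 ± 0.193 (SE) and a limma adjusted p of 1.6e-05, or 2.12 to 3.43 over the scalings. Its paralog Elavl1, the HuR protein made in most tissues, was not called, at 10.5 ± 0.445 FPKM in cKO and 10.8 ± 0.295 FPKM in Control, with a log2 fold change of -0.05 as deposited. Elavl1 was called higher under 3 other scalings, at 0.64 (quantile normalization), 0.83 (reads to 1000000) and 1.12 (FPKM to 1000000). Elavl2 had 0.817, 1.12 and 0.841 times the level of Elavl1 in cKO and 0.130, 0.194 and 0.183 times in Control. The difference in log2 ratio was 2.46 (exact two-sided permutation p = 0.1, adjusted p = 0.1 over the 5 pairs).

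Rbm46 (chromosome 3, 82837228 to 82876483), which mouse germ cells need to enter and pass through early meiosis, had 46.1, 51.7 and 54.1 FPKM in cKO and 42.6, 42.4 and 39.5 FPKM in Control. The lowest cKO library was close to the highest Control library. Its mean was 50.6 ± 4.10 FPKM in cKO and 41.5 ± 1.75 FPKM in Control, and the log2 fold change was 0.28 ± 0.0919 (SE) with a limma adjusted p of 0.020. That call was lost without cKO replicate 2 (adjusted p = 0.063), without cKO replicate 3 (0.087) or without Control replicate 3 (0.062). Of the alternatives tried, scaling moved this log2 fold change most, to 1.19 (reads to 1000000), 1.47 (FPKM to 1000000) or 1.64 (quantile normalization). In all of these Rbm46 was called. As a share of reads it held 0.0177 ± 0.00125% in cKO and 0.00766 ± 0.000479% in Control (SD, n = 3 each). Of the proteins RBM46 is known to work with, Ythdc2 rose, at 15.8 ± 1.47 FPKM in cKO and 7.34 ± 1.14 FPKM in Control, and Meioc was not called, at 62.0 ± 12.7 FPKM in cKO and 73.7 ± 5.36 FPKM in Control, with a log2 fold change of -0.26. The direction of Meioc turned under 3 other scalings, where it was called higher, at 0.65 (reads to 1000000), 0.92 (FPKM to 1000000) and 1.26 (quantile normalization). Both were named after their values were seen.

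Pabpc1 (chromosome 15, 36595661 to 36609668), the main cytoplasmic poly(A)-binding protein, had 126, 141 and 139 FPKM in cKO and 770.1, 663 and 673 FPKM in Control. Its mean was 135 ± 8.49 FPKM in cKO and 702 ± 59.1 FPKM in Control, with a log2 fold change of -2.37 ± 0.1003 (SE) and a limma adjusted p of 1.6e-07. Under quantile normalization it was -0.58, still past the threshold. Pabpc4, a close relative, rose to 17.5 ± 1.77 FPKM in cKO, against 2.30 ± 0.752 FPKM in Control. The ratio of Pabpc1 to Pabpc4 was 7.30, 8.89 and 7.19 in cKO and 537, 236 and 255 in Control, and the difference in log2 ratio was -5.36 (exact two-sided permutation p = 0.1, adjusted p = 0.1 over the 5 pairs). The testis copies Pabpc2 and Pabpc6 were close to 0 in cKO, at 0.132 ± 0.101 and 1.18 ± 0.189 FPKM, against 606 ± 98.3 and 249.7 ± 35.8 FPKM in Control. These copies resemble Pabpc1 closely, so how reads were divided among them is uncertain.

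**Figure D4:**
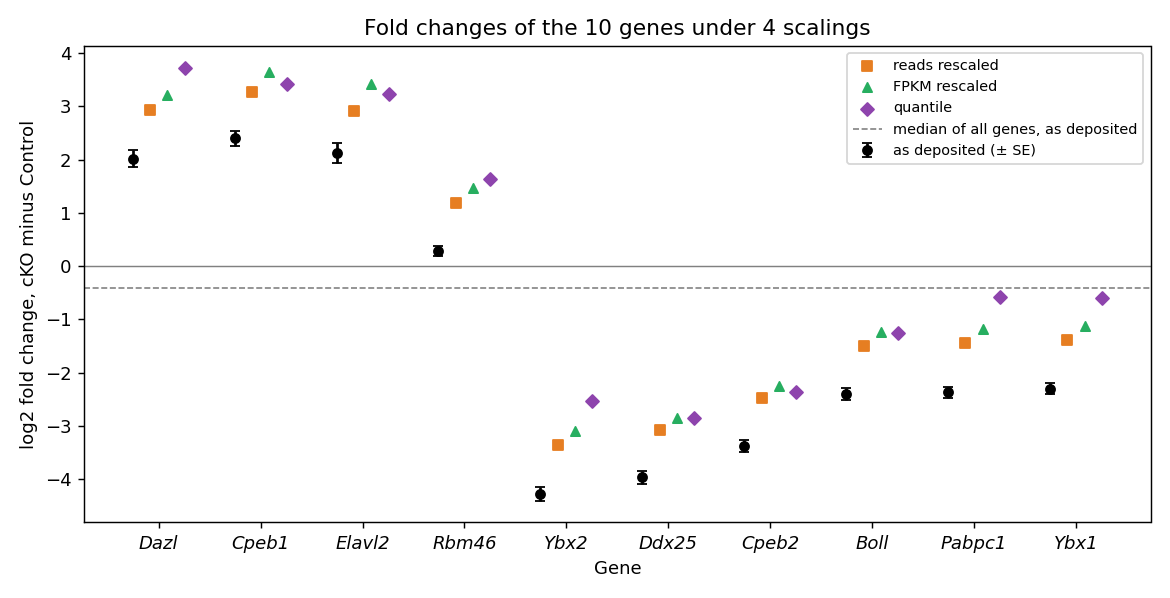
Log2 fold changes of the 10 genes, cKO minus Control, as deposited (black, with SE) and under 3 other scalings (coloured), with the median of all genes tested as a dashed line at -0.41. Under every scaling drawn the same 4 genes lie above 0 and the same 6 below it.

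The wider machinery of tails, storage and silencing was examined in 4 lists of related genes. Leaving out the 10 genes, it held 118 genes, of which 109 were tested. Of these 50 rose and 45 fell in cKO by limma, against 36.2% and 50.4% of all genes tested, with a median log2 fold change of 0.16 and of -0.41 over all genes. All the listed genes are protein-coding, and among the 12721 protein-coding genes 42.8% were called higher and 44.7% lower, with a median of -0.04, a smaller contrast with the list. All 50 rises and 26 of the 45 falls were also called in the same direction under 4 other scalings. These scalings shifted the median over all genes up, by 0.04 to 1.12, so they could hardly undo a rise. Keeping all the rises is therefore no sign that rises were firmer than falls. The poly(A) tail and CPEB list had 4 of 18 genes higher and 10 lower, with a median of -0.63. Its most strongly called genes, beside Pabpc2 and Pabpc6, were Papolb, the testis cytoplasmic poly(A) polymerase, at 2.28 ± 0.367 FPKM in cKO and 339 ± 57.7 FPKM in Control, and Tent5c, another poly(A) polymerase, at 2.005 ± 0.126 FPKM in cKO and 145 ± 20.6 FPKM in Control.

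In the deadenylation and repression list 12 of 24 genes were higher and 8 lower, against 36.2% and 50.4% of all genes, with a median of 0.29. Among protein-coding genes the shares were 42.8% and 44.7%, nearer to those of the list. With FPKM rescaled to 1000000, quantile normalization or reads rescaled to 1000000, 19 of the 24 were higher, where 54.2%, 52.1% and 50.6% of all genes were. The genes with the smallest p all fell. Btg4, known for clearing maternal mRNA in mouse eggs, had 0.321 ± 0.122 FPKM in cKO and 11.3 ± 1.71 FPKM in Control, and Btg1, a partner of deadenylases, 10.03 ± 1.499 FPKM in cKO and 44.3 ± 3.30 FPKM in Control. Cnot4, a ubiquitin ligase linked to the CCR4-NOT deadenylase, had 5.47 ± 0.592 FPKM in cKO and 23.2 ± 2.73 FPKM in Control. Cnot1, the scaffold of that complex, had 27.2 ± 1.196 FPKM in cKO and 62.9 ± 3.82 FPKM in Control, with a log2 fold change of -1.19 as deposited and 0.12 at the other end of the scalings.

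In the list of storage particles and granules 16 of 31 genes were higher and 14 lower, with a median of 0.34. The shares were 36.2% higher and 50.4% lower of all genes, and 42.8% and 44.7% of protein-coding genes. Beside Ybx3, the smallest p belonged to Tdrd6, a scaffold of the chromatoid body, at 0.217 ± 0.0926 FPKM in cKO and 207 ± 23.4 FPKM in Control, to D1Pas1, an autosomal copy of the helicase gene Ddx3x, at 18.2 ± 0.565 FPKM in cKO and 117 ± 10.1 FPKM in Control, and to Mael, a protein of germ granules and transposon silencing, at 119 ± 10.6 FPKM in cKO and 938 ± 107 FPKM in Control. In the list of other proteins that bind 3' untranslated regions 18 of 36 genes were higher and 13 lower, with a median of 0.32. This again stands beside 36.2% and 50.4% of all genes, and 42.8% and 44.7% of protein-coding genes. The most strongly called again fell: Samd4, the mouse Smaug protein, had 0.337 ± 0.0884 FPKM in cKO and 67.8 ± 4.05 FPKM in Control, and Celf3 had 0.0822 ± 0.0320 FPKM in cKO and 12.2 ± 0.623 FPKM in Control. Mex3d and Igf2bp3 fell with log2 fold changes of -2.88 and -3.75. Tdrd6, Samd4, Celf3 and Igf2bp3, and Pabpc2 and Btg4 of the lists before, had a mean below 1 FPKM in cKO. They met the limit for testing only through Control, so their fall was fixed in advance.

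**Figure D5:**
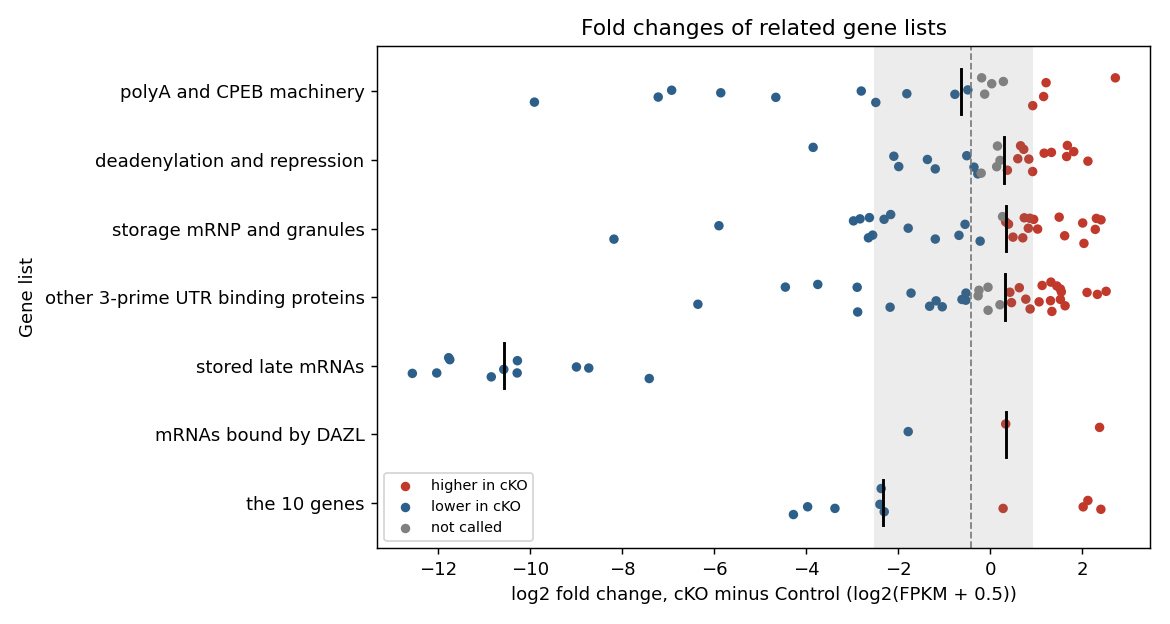
Log2 fold changes of the tested genes of 6 related lists and of the 10 genes, 1 point per gene, red where higher in cKO, blue where lower and grey where not called, with a black bar at each list's median. The grey band spans percentiles 25 to 75 of all genes tested, from -2.53 to 0.94, with a dashed line at their median of -0.41. The stored late mRNAs lie between -12.56 and -7.41.

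Among mRNAs that these regulators are known to handle, those stored for late use fell in 11 of 11 cases, with a median log2 fold change of -10.57. Of all genes tested 50.4% fell. Most of the 11 had a mean below 1 FPKM in cKO and met the limit for testing only through Control. Their fall was therefore fixed in advance, and the count is a description. Prm1, Tnp1 and Pgk2 are also among the stage markers given above. Odf1, of the outer dense fibers, had 0.348 ± 0.137 FPKM in cKO and 1554 ± 188.8 FPKM in Control. Gapdhs, the sperm glycolytic dehydrogenase, had 1.65 ± 0.267 FPKM in cKO and 907 ± 85.3 FPKM in Control. Prm3, a protamine-like gene, had no reads in the 3 cKO libraries and 1240 in the 3 Control libraries. Its fitted log2 fold change of -7.41 depends on the pseudocount. So does the median of the list, which is the value of Akap4, with 17 reads in cKO and all 3 cKO libraries below the pseudocount of 0.5 FPKM. Of 3 mRNAs reported as bound by mouse DAZL, Tex19.1, a germ cell gene of transposon control, rose to 45.6 ± 2.97 FPKM in cKO, against 8.74 ± 3.18 FPKM in Control, and Sycp3, of the chromosome axis, rose to 136 ± 19.7 FPKM in cKO, against 107 ± 4.45 FPKM in Control. Ddx4, the germ cell helicase also called VASA, fell to 97.6 ± 6.25 FPKM in cKO, against 338 ± 34.2 FPKM in Control. The fall of Ddx4 shrank to a log2 fold change of -0.11 and was not called under quantile normalization.

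Genes with profiles most like 3 of the regulators over the 6 libraries were found by the distance between centred log2(FPKM + 0.5) values. Nearest to Dazl were Apaf1, at a distance of 0.0843, and Caprin2, at 0.0935. Nearest to Ybx2 were Hspa2, at 0.122, and Rdh11, at 0.143, and nearest to Pabpc1 were Ncbp1, at 0.0543, and Syt11, at 0.0963. Hspa2, a heat shock protein of late spermatocytes, had 38.4 ± 6.50 FPKM in cKO and 738 ± 51.1 FPKM in Control. With 2 groups of libraries this likeness rests mainly on the size of the difference between them.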

How the data were processed

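RNA of mouse testis cells labelled STRA8+ was measured in 3 cKO and 3 Control libraries, grouped and numbered by their titles. The submitters' processing notes name HISAT2 2.0.5 and the mm10 build. The counter, the annotation release, the strand setting and the treatment of multiply mapped reads were not found in the labels or headers. The authors deposited FPKM values for 54532 genes. FPKM times gene length gave whole multiples of 1 read, within 0.01 read, for 100% of nonzero genes, from which reads and divisors were recovered. The main test was limma 3.58.1 (R 4.3.3) on log2(FPKM + 0.5) over 16791 genes (mean FPKM of 1 or more in the 6 libraries), cKO minus Control, with a mean-variance trend, moderated standard errors and Benjamini-Hochberg adjustment over all of them at 0.05. Fold changes on this scale are understated for low genes. Ratios of related genes were tested within libraries by exact permutation with scipy 1.17.1. The fit was tested on simulated data in which few genes changed and libraries were scaled by their read totals. That simulation does not bear on how the deposited scaling affects the calls.

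The genes and lists were chosen with earlier results of these data known. Named genes are the 10 regulators, Bcas2, Elavl1, Pabpc4, up to 4 genes per related list and up to 2 per marker list with the smallest p, and the 2 nearest profiles to Dazl, Ybx2 and Pabpc1; others are said to be named after their values were seen. Motif letters were chosen after expression was seen. Alternatives were other pseudocounts, filters, scalings, weights, no trend, a replicate block, limma voom on recovered reads, protein-coding genes alone and leaving out each library. No 2 replicates of a group were the same library deposited again: chi-square per gene was 6.90 to 13.2.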

Additional observations from a re-analysis of the deposited data

How the results depend on the processing

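Of the 19 alternatives, other filters, no trend, the replicate block and protein-coding genes alone cannot change a log2 fold change, only its adjusted p. Each of the 10 genes kept its direction in the rest, and 9 of them stayed past the threshold in all 19. The exception was Rbm46. With the replicate number as a block its log2 fold change was 0.28 with a limma adjusted p of 0.057, and leaving out single libraries gave 0.23 to 0.35. The labels do not say that equal numbers were paired. The correlation of deviations between same-numbered cKO and Control libraries was -0.12, -0.05 and -0.04. Deviations within a group of 3 libraries must cancel, so these values cannot decide if equal numbers mark shared handling. The block changed no call among the 10 other than that of Rbm46. Without Control replicate 1 the log2 fold change of Dazl was 1.91, its lowest. The other scalings shifted the median over all genes up, so they could hardly undo the direction of the genes that rose. The ratios of the 5 related pairs kept their direction in 9 alternatives each, with exact p of at least 0.1 throughout. Pairing the libraries by number cannot change the size of the difference, and recovered reads can hardly change it, so neither tests its direction.

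Counts over the related lists moved with scaling. With FPKM rescaled to 1000000, quantile normalization and reads rescaled to 1000000, the poly(A) and CPEB list had 10, 9 and 9 genes higher (4 as deposited), and the deadenylation list 19, 19 and 19 higher (12 as deposited) and 3, 4 and 5 lower (8 as deposited). Of other 3' binding proteins 7 and 8 were lower under FPKM rescaling and quantile normalization (13 as deposited), and of storage genes 9 under quantile normalization (14 as deposited). Of mRNAs bound by DAZL 1 was higher with no filter and without cKO replicate 2, Control replicate 1 or Control replicate 3 (2 as deposited), and 0 lower under quantile normalization (1 as deposited). Rescaling FPKM turned the split over all genes to 9109 higher and 6084 lower, against 6075 and 8462 as deposited. Depth limits Elavl2 and Cpeb1 most, whose Control values rest on the fewest reads.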

Other observations

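Several families of RNA-binding proteins outside the 10 genes also held members that went opposite ways; these genes were named after their values were seen. Among the CELF proteins, Celf1 and Celf2 rose, at 30.2 ± 2.01 and 4.14 ± 0.299 FPKM in cKO, against 10.2 ± 1.25 and 1.012 ± 0.211 FPKM in Control, whereas Celf5 and Celf6 fell, at 0.475 ± 0.0701 and 0.725 ± 0.0851 FPKM in cKO, against 6.74 ± 0.433 and 5.06 ± 0.714 FPKM in Control. Igf2bp1, which binds and protects mRNAs, rose to 7.53 ± 0.918 FPKM in cKO, against 2.31 ± 0.740 FPKM in Control, whereas Igf2bp3 fell to 0.727 ± 0.0740 FPKM in cKO, against 16.0 ± 1.81 FPKM in Control. The helicase genes Ddx3x and Ddx3y rose, at 27.5 ± 4.63 and 16.8 ± 0.823 FPKM in cKO, against 6.57 ± 1.85 and 2.83 ± 0.778 FPKM in Control, while their copy D1Pas1 fell with a log2 fold change of -2.65. Celf5, Celf6 and Igf2bp3 had a mean below 1 FPKM in cKO and met the limit for testing only through Control, so their fall was fixed in advance. Differences between members of a family were not tested here. Each of these calls held, in its direction, under the deposited scaling and 4 others, which shifted the median over all genes up and could hardly undo a rise. Lin28a and Dnd1, RNA-binding proteins of early germ cells, both rose, and had 15.9 ± 3.43 and 10.6 ± 2.15 FPKM in cKO and 2.86 ± 1.21 and 3.33 ± 0.590 FPKM in Control (SD, n = 3 each).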
